A study of Saccharomyces cerevisiae with 29 samples.

Results

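Deletion of RRP6 was compared with wild type in budding yeast held in G1 with the mating pheromone α-factor. The members were taken by column name: the 2 rrp6Δ G1 libraries were set against the 4 wild-type G1 libraries, which are 6 of the 29 samples in the series, and all 20318 rows of the deposited table entered. Both groups are W303 cells of mating type a that share the alleles trp1-1, ade2-1, his3-11,15, leu2 (mutations leu2-3 and leu2-112) and ura3, together with can1-100, GAL and RAD5. The mutant carries rrp6::TRP and also URA3::GPD-TK7, a thymidine kinase cassette driven by the GPD promoter, so against wild type the deletion and the cassette cannot be told apart. The rad50Δ strain (rad50::KAN, 2 libraries) has the same cassette and the xrn1Δ strain (xrn1::ADE2, 2 libraries) has none, and both were used as further G1 references. Cells grew in rich medium with 2% glucose at 25 °C, and α-factor was given at 5 µg/ml for an arrest of 170 min. Total RNA depleted of rRNA was sequenced with strand kept.

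Rrp6 is a 3′ to 5′ exonuclease of the nuclear exosome, the ring-shaped complex that degrades or trims RNA from its 3′ end. In yeast nuclei the Nrd1-Nab3-Sen1 complex ends transcription of short noncoding units, the TRAMP complex adds a short tail, and the exosome either destroys the RNA or trims it to a mature end, as for small nucleolar RNAs (snoRNAs) and 5.8S rRNA. Cryptic unstable transcripts (CUTs) owe their name to the fact that they are seen mainly in cells lacking Rrp6, stable unannotated transcripts (SUTs) are seen in wild type too, and Xrn1-sensitive transcripts (XUTs) were defined in cells lacking the cytoplasmic exonuclease Xrn1. The direction of the CUT class is therefore built into its annotation and is no independent evidence.

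Values are normalised reads, that is, reads per row divided by 1 size factor per library by the authors. Reads on coding rows came to 18765423 and 32240553 in rrp6Δ, against 15493490, 11070232, 22876971 and 20138000 in wild type. Log values of the rrp6Δ pair correlated at r = 0.993 across rows, wild-type pairs at 0.972 to 0.989, and rrp6Δ with wild type at 0.938 to 0.957; rows within a library are not independent replicates. Wild type 1 stood apart in cell-cycle state. Its mean log2 level of 42 genes of the G1/S transition lay 1.36 above the wild-type mean, against -0.39, -0.39 and -0.57 in the other wild-type libraries, and its 27 pheromone-response genes lay 1.04 below (score -1.04, against 0.46, 0.18 and 0.40). The rrp6Δ libraries, at -0.30 and -0.24 for G1/S and 0.53 and 0.45 for pheromone response, were closer to wild type 2, 3 and 4. Wild type 4 was low in rRNA rows (-1.30) and in mitochondrially encoded genes (-0.64). "Rose" and "fell" mark an adjusted p under 0.05 from limma on log2(value + 1) with Benjamini-Hochberg adjustment over the 16559 rows with a mean of at least 10. Folds are ratios of group means, and log2 changes come from the fit with their standard error. The variance behind each p value was estimated from all 17 RNA libraries in 8 groups, not from rrp6Δ and wild type alone. With only the 2 groups compared, 253 coding rows were higher and 242 lower, against 482 and 513 in the main test. Whether replicates came from separate cultures is not stated in the labels. A p value here therefore reflects the scatter within the 8 groups, which may be technical. In bulk RNA, fewer cells that hold an RNA and less of it per cell cannot be told apart.

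The deleted gene and the markers were checked first. RRP6 (YOR001W, chromosome 15, 326832 to 329033, build R64) had 1.73 and 1.05 normalised reads in rrp6Δ, against 3681, 3368, 3138 and 3650 in wild type (log2 -10.51 ± 0.12, adjusted p = 1.86e-15). TRP1, the marker that replaced it, had 241 and 261 in rrp6Δ, against 139, 113, 118 and 159 in wild type, and rose by 0.93 ± 0.16 log2 (adjusted p = 0.000775). URA3, where the cassette sits, had 2057 and 1863 in rrp6Δ, against 8010, 6592, 8368 and 7732 in wild type, and fell by 1.96 on the log2 scale (adjusted p = 1.04e-06). All 3 rows separate the groups without overlap. URA3 was also lower than in rad50Δ, which has the cassette and had 4014 and 4365 (adjusted p = 0.000388).

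Most rows that rose were noncoding. Of 16559 rows tested, 3531 (21.3%) rose and 1151 (6.95%) fell, with a median of 0.11 log2. CUTs led: 650 of 760 tested (85.5%) rose and 4 (0.526%) fell, with a median of 2.63 log2. Of 1424 XUTs, 857 (60.2%) rose and 24 (1.69%) fell, with a median of 1.19. Of 734 SUTs, 428 (58.3%) rose and 7 (0.954%) fell, with a median of 0.97. Coding open reading frames (ORFs) split evenly, with 482 of 5580 (8.64%) higher, 513 (9.19%) lower and a median of -0.00. Counted instead by libraries that do not overlap between the groups, rrp6Δ lay above wild type in 5428 rows in all (32.8%) and below in 2545 (15.4%). For CUTs the shares were 89.6% above and 0.921% below, for XUTs 73.2% and 2.95%, for SUTs 71.0% and 3%, and for divergent rows 38.3% and 7.40%. Rows of these noncoding classes overlap one another and share reads, so their counts are not independent.

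Summed over the class, CUT rows took 8.25 and 9.14 reads per 1000 coding reads in the rrp6Δ libraries, against 1.48, 1.44, 1.41 and 1.56 in wild type. XUT rows took 21.0 and 20.7 in rrp6Δ, against 7.14, 9.94, 11.6 and 11.3 in wild type, and SUT rows took 7.51 and 7.64, against 2.64, 3.19, 3.57 and 3.50. For these 3 classes both mutant libraries lie above every wild-type library. The summed divergent rows were lower, with 38.3 and 74.8 in rrp6Δ, against 90.1, 92.1, 88.4 and 83.3 in wild type. The mutant pair differ widely. Row by row the class did not fall: 427 of 1946 divergent rows rose and 50 fell, with a median of 0.31. A few abundant rows can carry such a sum, and which rows did so was not tested. Per kilobase, the median CUT had 228 normalised reads in rrp6Δ and 36.4 in wild type, still below the median coding ORF at 701 in rrp6Δ and 699 in wild type.

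**Figure D1:**
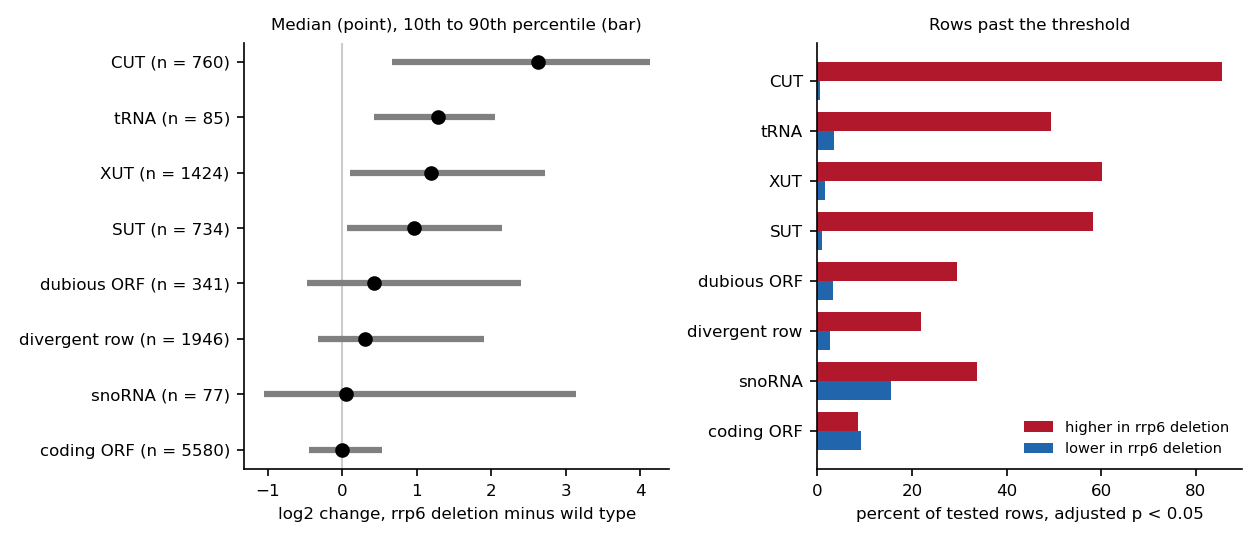
The left panel plots the median log2 change (rrp6 deletion minus wild type) of each RNA class with its 10th to 90th percentile, and the right panel the percent of tested rows past the threshold in each direction. CUTs reach 85.5% higher with a median of 2.63, while coding ORFs are balanced at 8.64% higher and 9.19% lower.

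The filter on low values matters for these counts, because a CUT can pass it through the rrp6Δ libraries alone. Of the 925 CUTs in the file 760 passed, and 216 of those did so only with the rrp6Δ libraries counted. Among the 544 that reach a mean of 10 over the 15 other libraries, 437 rose and 4 fell, with a median of 2.23. The same filter left 1341 XUTs (792 higher, median 1.13) and 722 SUTs (419 higher, median 0.96). Split into 4 equal bins by mean reads per base over the 17 RNA libraries, a split made after values were seen, CUTs had medians of 2.68, 2.77, 2.75 and 1.69 from the lowest to the highest bin, with 181, 172, 168 and 129 of 190 risen. These bins hold all 760 CUTs, and their means include the rrp6Δ libraries. The filter thus favours risen rows among CUTs of low level, and the bins cannot show how the rise depends on level.

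The CUTs that rose most lie just past snoRNA genes. A CUT that starts within 800 bp of the 3′ end of a snoRNA on the same strand was counted as lying past it, a rule chosen after values were seen and given without a test. There are 35 such CUTs in the file; 34 were tested, past 26 snoRNAs, and all 34 rose, by 2.92 to 9.06 log2 with a median of 5.16. The other 726 tested CUTs had a median of 2.56, with 616 risen. Without the rrp6Δ libraries in the filter, the medians were 4.99 over 24 CUTs past snoRNAs and 2.17 over 520 others. Of the 20 largest rises among CUTs, 15 lie past a snoRNA.

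Past snR3, an H/ACA snoRNA that guides pseudouridylation of rRNA, 3 adjoining CUTs rose. CUT221 (chromosome 10, 664054 to 664462, plus strand, 112 bp past snR3) had 6865 and 7943 normalised reads in rrp6Δ, against 121, 95.5, 30.9 and 97.8 in wild type, which is 85.7-fold (log2 6.56 ± 0.39, adjusted p = 2.03e-07). CUT222 (664462 to 664710, 520 bp past) had 2594 and 3122 in rrp6Δ, against 2.79, 6.82, 3.25 and 5.48 in wild type, which is 623-fold (log2 9.06 ± 0.53, adjusted p = 1.48e-07). With so few wild-type reads the size of that fold is imprecise. Farther out, CUT223 (664710 to 664902) had 523 and 760 in rrp6Δ, against 4.18, 5.12, 0 and 0.914 in wild type (log2 7.82 ± 0.65, adjusted p = 2.57e-06). Each stands far above every wild-type library, and within rrp6Δ the reads fall off with distance from the snoRNA. The snoRNA row itself overlapped between groups: snR3 had 25174 and 30315 in rrp6Δ, against 33895, 33904, 20822 and 22568 in wild type (log2 0.03 ± 0.21, adjusted p = 0.94).

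The same arrangement was seen past snR11, an H/ACA snoRNA, and snR45, a C/D snoRNA. CUT306 (chromosome 13, 652602 to 652922, 70 bp past snR11) had 4936 and 6042 in rrp6Δ, against 171, 88.7, 52.9 and 84.99 in wild type (55.2-fold, log2 5.89 ± 0.32, adjusted p = 8.67e-08). CUT307, the next row (652922 to 653050), had 691 and 950 in rrp6Δ, against 0, 0, 1.63 and 1.83 in wild type (log2 8.94 ± 0.62, adjusted p = 7.19e-07); at 0 to 2 wild-type reads per library no fold is given. CUT433 (chromosome 16, 822055 to 822167, 152 bp past snR45) had 2280 and 2752 in rrp6Δ, against 36.2, 18.8, 4.07 and 15.5 in wild type (135-fold, log2 7.31 ± 0.59, adjusted p = 2.19e-06). The snoRNAs upstream again overlapped between groups: snR11 changed by 0.05 log2 (adjusted p = 0.835) and snR45 by 0.35 (adjusted p = 0.128). CUT681 past snR37 rose 115-fold from wild-type values of 2.44 to 8.53, and CUT137 past snR10 112-fold from 1.71 to 9.14. These folds are imprecise for the same reason. CUT841 past snR62, CUT150 past snR48 and CUT180 past snR71 rose by 6.68, 6.21 and 6.06 log2.

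**Figure D2:**
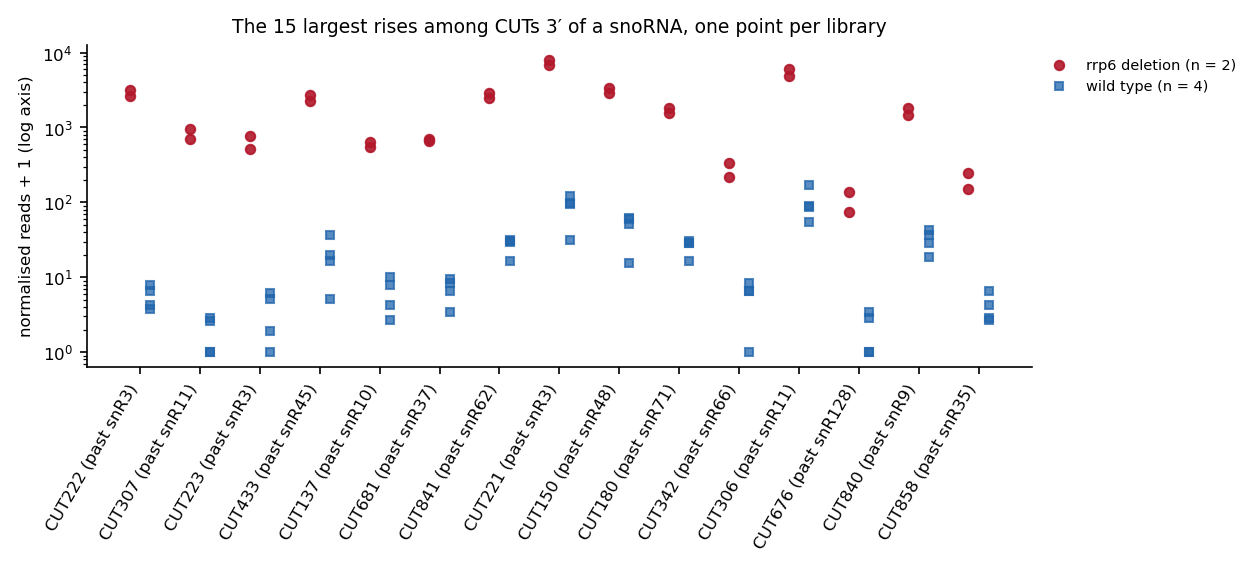
Each column is a CUT that starts 3′ of the snoRNA named in brackets, with normalised reads plus 1 on a log axis, red circles for the 2 rrp6 deletion libraries on the left and blue squares for the 4 wild-type libraries on the right. For CUT222 the circles stand at 2594 and 3122 and the squares at 2.79 to 6.82, and in no column do the groups overlap.

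Other row classes past snoRNAs did not all move this way. The 3 dubious ORFs in that position rose, among them YCL007C past snR43, with 455 and 737 in rrp6Δ, against 8.36, 15.3, 15.5 and 11.0 in wild type (log2 5.46 ± 0.32, adjusted p = 1.48e-07). YOR277C past snR31 rose by 4.71 log2. YMR013W-A starts past snR74 and rose by 1.78, but it lies inside the snoRNA snR73 on the same strand and shares its reads. SnR73 itself rose by 1.78, so YMR013W-A is no separate case. Of 26 coding ORFs whose start lies there, 8 rose and 2 fell, with a median of 0.02, beside 8.64% and 9.19% of all coding ORFs. YDR042C, 399 bp past snR47, had 290 and 405 in rrp6Δ, against 57.1, 61.4, 43.9 and 45.7 in wild type (log2 2.71 ± 0.20, adjusted p = 1.3e-06), but its difference from rad50Δ, 0.63 log2, missed the threshold (adjusted p = 0.0584). FLX1 (a mitochondrial FAD carrier) past snR68 rose 2.84-fold, RGT1 (a repressor of glucose transporter genes) past snR69 2.48-fold, USE1 (a SNARE) past snR82 2.21-fold and SFT1 (a SNARE) past snR87 2.12-fold. RGT1 differed from rad50Δ by 0.11 log2 (adjusted p = 0.56), while FLX1, USE1 and SFT1 were 0.93, 1.21 and 0.67 higher in rrp6Δ than in rad50Δ (adjusted p = 0.00658, 0.000294 and 0.0094). TRS31, a TRAPP subunit past snR13 and a well-known site of readthrough in termination mutants, had 590 and 621 in rrp6Δ, against 637, 566, 634 and 549 in wild type (log2 0.02 ± 0.12, adjusted p = 0.904).

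Among CUTs not past a snoRNA the changes reached 6.44 log2. CUT646 (chromosome 8, 273123 to 273603, minus strand), shown because it lies opposite a coding gene that fell, had 2252 and 2123 in rrp6Δ, against 30.7, 64.8, 39.8 and 82.2 in wild type (40.2-fold, log2 5.41 ± 0.40, adjusted p = 1.34e-06). XUT1299 (272487 to 273400) overlaps it and had 1817 and 1833 in rrp6Δ, against 41.8, 47.7, 43.9 and 77.7 in wild type (34.6-fold, log2 5.13 ± 0.34, adjusted p = 4.62e-07). In both rows the mutant libraries lie far above every wild-type library. XUT0591 and XUT1083 rose by 4.55 and 4.49 log2, and XUT1385 by 4.66, which was 4.07 without wild type 2.

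SUT503 (chromosome 5, 15773 to 15981) had 858 and 917 in rrp6Δ, against 57.1, 39.2, 28.5 and 44.8 in wild type (20.9-fold, log2 4.40 ± 0.38, adjusted p = 3.19e-06). SUT264 rose 15.4-fold, SUT006 13.0-fold and SUT535 by 3.69 log2. Among rows the file names divergent, 427 of 1946 (21.9%) rose and 50 (2.57%) fell, with a median of 0.31; 224 rose without rrp6Δ library 1 and 201 without library 2. Of these divergent rows 132 passed the filter only with the rrp6Δ libraries, and 328 of the other 1814 (18.1%) rose. Of the dubious ORFs counted next, 25 passed only that way, and 80 of the other 316 (25.3%) rose. Among all tested rows 21.3% rose. The divergent_1014 row had 102 and 115 in rrp6Δ, against 2.79, 1.71, 7.32 and 2.74 in wild type (log2 4.69 ± 0.73, adjusted p = 0.000323). Dubious ORFs rose in 101 of 341 cases (29.6%) and fell in 11 (3.23%), with 55 and 53 risen without rrp6Δ library 1 or 2. The SUT count was 268 without library 2.

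Falls among CUTs, XUTs and SUTs were fewer than rises, and reached -1.20 log2 in CUTs, -3.37 in XUTs and -1.89 in SUTs. XUT0391 had 57.0 and 50.3 in rrp6Δ, against 191, 228, 275 and 261 in wild type (log2 -2.12 ± 0.55, adjusted p = 0.012), and its call was lost without rrp6Δ library 1 or 2 (adjusted p = 0.0687 and 0.0904). CUT484 had 820 and 1438 in rrp6Δ, against 4435, 2541, 2044 and 1671 in wild type (log2 -1.20 ± 0.31, adjusted p = 0.013), and without rrp6Δ library 1 the call was lost (log2 -0.79, adjusted p = 0.198). The other 3 CUTs that fell, CUT061, CUT290 and CUT155 (log2 -0.79, -0.73 and -0.65), each lost the call when rrp6Δ library 1 was left out (adjusted p = 0.251, 0.478 and 0.172) and also without wild type 1 (adjusted p = 0.0517, 0.0602 and 0.0724). CUT290 and CUT155 also lost it without wild type 2 (adjusted p = 0.0657 and 0.0777), and CUT155 without rrp6Δ library 2 (adjusted p = 0.14). SUT616 had 11.2 and 22.5 in rrp6Δ, against 37.6, 71.6, 89.5 and 60.3 in wild type (log2 -1.89 ± 0.37, adjusted p = 0.00178), and SUT600 fell by 1.72 on the log2 scale.

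The rise of CUTs separated rrp6Δ from the mutant of cytoplasmic decay. In the direct contrast of rrp6Δ with xrn1Δ, 617 CUTs (81.2%) were higher and 10 (1.32%) lower, where 32.5% of all rows were higher and 23.5% lower. Of the 760 CUTs tested, 216 passed the filter only with the rrp6Δ libraries, so a high rrp6Δ value was part of their selection. XUTs split, with 506 (35.5%) higher and 273 (19.2%) lower in rrp6Δ, and SUTs were nearly balanced, with 213 (29.0%) higher and 190 (25.9%) lower. CUT222 had 1.09 and 0.673 normalised reads in xrn1Δ, below its wild-type level, and lay 10.57 log2 higher in rrp6Δ (adjusted p = 3.45e-08). Against rad50Δ, which shares the cassette, 582 CUTs (76.6%) were higher and 6 (0.789%) lower in rrp6Δ, where 20.6% of all rows were higher and 10% lower. XUTs were higher in 600 cases (42.1%) and lower in 43 (3.02%), and SUTs in 282 (38.4%) and 19 (2.59%). Divergent rows were higher in 381 cases (19.6%) and lower in 59 (3.03%). CUT222 had 25.8 and 32.3 in rad50Δ, 6.57 log2 below rrp6Δ (adjusted p = 1.82e-05). Among CUTs that pass the filter without the rrp6Δ libraries, all 24 past a snoRNA were higher than in xrn1Δ and than in rad50Δ. Of the 520 others, 389 were higher and 10 lower than in xrn1Δ, and 368 higher and 6 lower than in rad50Δ. The contrasts of these mutants with wild type share the wild-type libraries with that of rrp6Δ, so no overlap between those contrasts is given.

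SnoRNA rows differed in their change by box type and length. The rows count reads over annotated intervals and do not measure the size of the RNA. All 29 H/ACA rows are of 150 nt or more and every row under 150 nt is C/D. Short C/D rows and H/ACA rows therefore differ in both type and length. SnoRNAs guide methylation (box C/D) or pseudouridylation (box H/ACA) of rRNA, and types were assigned from general knowledge of yeast with values already seen, so the groups carry no test. Of all 77 snoRNA rows, 26 (33.8%) rose and 12 (15.6%) fell, with a median of 0.05 (-0.09 to -0.16 under TMM, edgeR and DESeq2 scaling). Of 47 C/D rows, 25 rose and 3 fell (median 1.08), and of 29 H/ACA rows, 1 rose and 9 fell (median -0.40). The rises lie in short C/D genes outside introns: of 34 under 150 nt, 25 rose and 2 fell (median 1.82). Single C/D genes gave 16 of 23 risen (median 1.93) and C/D genes in clusters 9 of 18, with 2 lower (median 0.84). Of the 6 C/D rows in introns 1 fell in limma and 2 in edgeR and in DESeq2, none rose in any of these or at an unadjusted p under 0.05 in limma, and the median was -0.15. For the 7 C/D rows of 150 nt or more limma called none, with 2 higher at an unadjusted p under 0.05 and a median of 0.02, edgeR called 1 lower and DESeq2 called 2 lower.

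SnR71, a C/D snoRNA, had 2146 and 2980 in rrp6Δ, against 113, 71.6, 65.1 and 104 in wild type, which is 29.0-fold (log2 4.86 ± 0.25, adjusted p = 5.67e-08). SnR56 had 1991 and 2727 in rrp6Δ, against 114, 92.1, 137 and 160 in wild type (18.8-fold, log2 4.23 ± 0.25, adjusted p = 1.48e-07). The wild-type libraries are tight and every rrp6Δ library is more than 10 times the highest of them. Similar rises were measured for snR58 (19.3-fold), snR62 (15.8-fold), snR48 (13.6-fold) and snR47 (12.1-fold). For snR48 wild type 1 and 2 (248 and 377) stood above wild type 3 and 4 (51.2 and 116), and the rise was 3.12 log2 against the first pair and 5.10 against the second. SnR13 had 7611 and 12294 in rrp6Δ, against 4566, 6140, 4290 and 2352 in wild type (log2 1.24 ± 0.33, adjusted p = 0.0143), and its call was lost without rrp6Δ library 2 (log2 0.89, adjusted p = 0.18).

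**Figure D3:**
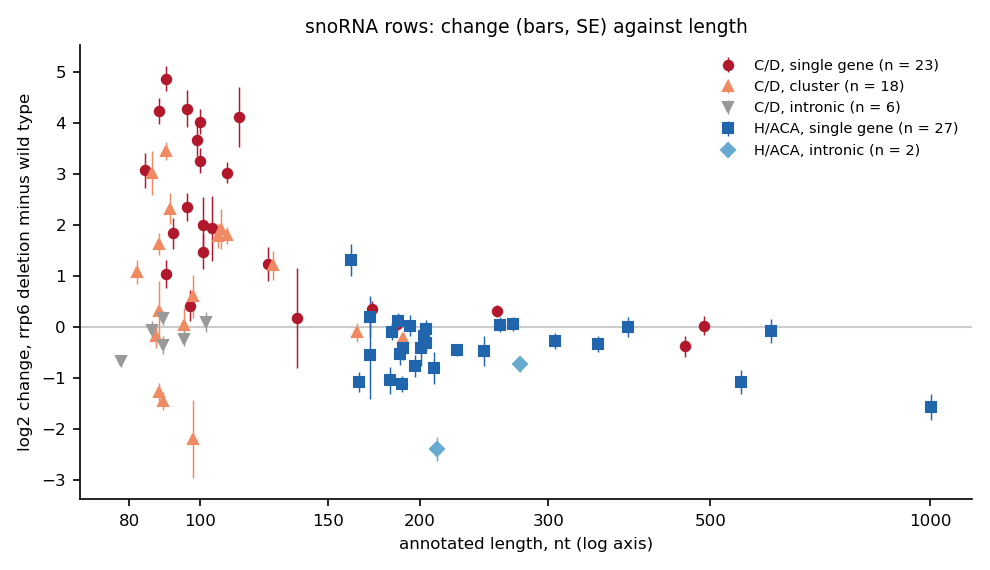
Each point is a snoRNA row, placed by annotated length (log axis) and by its log2 change, rrp6 deletion minus wild type, with the standard error as bar; symbols give the box type and whether the gene is single, clustered or intronic. C/D rows under 150 nt outside introns spread up to 4.86, while H/ACA rows, all of 150 nt or more, lie mostly below 0, down to -2.38.

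The deepest fall was that of snR44, an H/ACA snoRNA in the intron of RPS22B, with 3841 and 4396 in rrp6Δ, against 32076, 24874, 19278 and 13722 in wild type (log2 -2.38 ± 0.24, adjusted p = 1.25e-05). Its host row RPS22B, which spans the intron and shares its reads, fell by 1.76 on the log2 scale. SnR86 had 53736 and 50917 in rrp6Δ, against 225405, 202883, 102567 and 121477 in wild type (log2 -1.56 ± 0.25, adjusted p = 0.000467). In the snR72 to snR78 cluster snR75 fell by 1.45 and snR74 by 1.27. In none of these 4 snoRNAs that fell do the groups overlap. The same cluster holds rises as well, snR76 by 1.80 and snR73 by 1.78, while snR72, snR77 and snR78 had no call. Against xrn1Δ, 71 of 77 snoRNA rows (92.2%) were higher in rrp6Δ, with a median of 2.64, and the median of xrn1Δ against the same wild-type libraries was -2.46. Against rad50Δ, 20 (26.0%) were higher and 14 (18.2%) lower.

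Transfer RNA rows rose as well, from low counts. Of 299 tRNA genes 85 passed the filter, 42 (49.4%) rose and 3 (3.53%) fell, with a median of 1.29; 24 rose without rrp6Δ library 1 and 10 without library 2, and 68 passed without the rrp6Δ libraries, 31 of them higher. Identical tRNA genes share reads. Their sum came to 1.49 and 1.65 reads per 1000 coding reads in rrp6Δ, against 0.279, 0.645, 0.737 and 0.916 in wild type. The largest change was in SUF2, a proline tRNA gene, with 912 and 1939 in rrp6Δ, against 27.9, 25.6, 26.8 and 51.2 in wild type (43.4-fold, log2 5.36 ± 0.40, adjusted p = 1.27e-06). The glutamine tRNA row tQ(UUG)H had 211 and 215 in rrp6Δ, against 13.9, 27.3, 22.8 and 33.8 in wild type (log2 3.14 ± 0.41, adjusted p = 8.61e-05), and MIP6, described below among coding genes, starts 161 bp past it on the same strand.

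Among other stable RNAs, RUF20 rose 3.11-fold (log2 1.62 ± 0.19, adjusted p = 3.35e-05). SRG1, whose transcription across the SER3 promoter represses that gene, had 1437 and 1680 in rrp6Δ, against 651, 858, 688 and 750 in wild type (log2 1.08 ± 0.13, adjusted p = 4.36e-05). SER3, for serine synthesis, had 2612 and 2479 in rrp6Δ, against 3164, 5501, 2438 and 2922 in wild type (log2 -0.39, adjusted p = 0.256), and its libraries overlap. SCR1, the RNA of the signal recognition particle, had 129751 and 776541 in rrp6Δ, against 1490400, 1337330, 1239000 and 1125770 in wild type (log2 -2.02 ± 0.90, adjusted p = 0.119), and the mutant pair differ widely. The U2 snRNA LSR1 rose by 0.49 (adjusted p = 0.04), a call lost without rrp6Δ library 1 or 2 (adjusted p = 0.251 and 0.111) and without wild type 3 or 4 (adjusted p = 0.0772 and 0.0731). Of 14 rRNA rows, from libraries depleted of rRNA, 5 fell; RDN18-1 had 2983 and 1943 in rrp6Δ, against 30747, 16975, 26608 and 6542 in wild type (log2 -2.85 ± 0.67, adjusted p = 0.00796), with wild type 4 lowest of its group, and the call was lost without rrp6Δ library 2 (adjusted p = 0.0879). How far depletion set these levels was not tested.

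Gene lists are set beside all coding ORFs, of which 8.64% rose and 9.19% fell in limma. Of 10 genes of the exosome core none passed the threshold in limma, edgeR or DESeq2, and 1 was higher at an unadjusted p under 0.05 in limma. Their changes ran from -0.13 to 0.27 log2 with a median of 0.05 (-0.08 under TMM scaling). DIS3, the catalytic subunit, had 4836 and 4837 in rrp6Δ, against 5525, 4584, 4134 and 4648 in wild type (log2 0.04 ± 0.11, adjusted p = 0.802). RRP43, a ring subunit, was highest at 0.27 ± 0.11 (adjusted p = 0.0733). Of 9 nuclear cofactors 1 rose, with a median of 0.02 (-0.12 under TMM scaling). That gene is AIR2, a zinc-knuckle subunit of TRAMP, with 765 and 763 in rrp6Δ, against 451, 373, 381 and 450 in wild type (log2 0.89 ± 0.12, adjusted p = 0.000133). The TRAMP helicase MTR4 stood at -0.21, and the Rrp6 partners LRP1 and MPP6 at 0.07 and 0.02, none past the threshold.

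Of 8 genes of the termination machinery, 4 rose and none fell, beside 8.64% and 9.19% of all coding ORFs. The median was 0.37 (0.23 under TMM scaling), and edgeR and DESeq2 called 3 higher and none lower. NRD1, an RNA-binding subunit whose own transcript is ended early by the complex, had 2621 and 2869 in rrp6Δ, against 748, 955, 560 and 774 in wild type, which is 3.62-fold (log2 1.88 ± 0.18, adjusted p = 8.51e-06). PCF11, a cleavage factor that binds the RNA polymerase tail, had 748 and 768 in rrp6Δ, against 450, 517, 383 and 492 in wild type (log2 0.73 ± 0.14, adjusted p = 0.00146). Both genes lie above every wild-type library. NAB3, the partner RNA-binding subunit, had 3400 and 3108 in rrp6Δ, against 1505, 1357, 2234 and 2586 in wild type (log2 0.81 ± 0.22, adjusted p = 0.0129), and lost its call without rrp6Δ library 1 (adjusted p = 0.111) or 2 (adjusted p = 0.0606). SSU72, a phosphatase, rose by 0.44 and lost its call without either rrp6Δ library or wild type 4 (adjusted p = 0.118, 0.203 and 0.0503). The helicase gene SEN1 was at 0.06, HRP1 at 0.15, PTI1 at 0.25 and SYC1 at 0.29, and none of these passed.

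Genes known to be controlled by early termination went both ways: of 13 listed, 2 rose (NRD1 and PCF11) and 3 fell, with a median of 0.11 (-0.03 under TMM scaling). Among all coding ORFs 8.64% rose and 9.19% fell. IMD2, for GTP synthesis, had 3995 and 4366 in rrp6Δ, against 6983, 8231, 8465 and 8402 in wild type (log2 -0.94 ± 0.12, adjusted p = 7.69e-05). RPL9B, a ribosomal protein gene, had 6099 and 6351 in rrp6Δ, against 18419, 13568, 10896 and 13379 in wild type (log2 -1.15 ± 0.15, adjusted p = 9.89e-05). URA2, for pyrimidine synthesis, fell by 0.40 on the log2 scale and lost its call without either rrp6Δ library (adjusted p = 0.107 and 0.172). ADE12 stood at 0.06 (adjusted p = 0.853).

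Among 12 poly(A) and export genes 2 rose and 1 fell, beside 8.64% and 9.19% of all coding ORFs. NAB2, a poly(A)-binding protein gene regulated through its own transcript and Rrp6 in yeast, had 2834 and 3404 in rrp6Δ, against 1216, 1311, 1439 and 1344 in wild type (2.35-fold, log2 1.23 ± 0.12, adjusted p = 7.69e-06). YRA1, an export adaptor, rose by 0.52, a call lost without rrp6Δ library 2 (adjusted p = 0.133). Of 16 snoRNA processing genes none rose by limma, edgeR or DESeq2 or at an unadjusted p under 0.05, and 2 fell: GAR1, an H/ACA core protein, by 0.96 on the log2 scale and LHP1, the yeast La protein, by 0.41. GAR1 lost its call without rrp6Δ library 1 (adjusted p = 0.159) and LHP1 without either (adjusted p = 0.241 and 0.125) and without wild type 1 or 4 (adjusted p = 0.0751 and 0.0627). Of 19 Ski and cytoplasmic decay genes 1 fell, POP2, a deadenylase subunit, by 0.31, and without rrp6Δ library 1 or 2 it did not pass (adjusted p = 0.292 and 0.0927), nor without wild type 1, 2 or 4 (adjusted p = 0.0663, 0.0651 and 0.0555).

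Coding ORFs changed in similar numbers up and down under the authors' scaling, with 48.4% of calls higher. Under TMM scaling over all rows, which moves the contrast by -0.14 log2, the split was 280 higher and 981 lower (22.2% higher), with edgeR 279 and 1136 (19.7%) and with DESeq2 336 and 1231 (21.4%). Coding calls also depend on each mutant library: 176 rose and 172 fell without rrp6Δ library 1, and 205 and 201 without library 2. Without wild type 1, the library that stood apart, 438 rose and 462 fell. Libraries of the 2 groups did not overlap, with rrp6Δ above, in 1092 ORFs (19.6%), and below in 1126 (20.2%). Of ORFs under 300 bp 39 of 205 rose and 8 fell (median 0.27), and of longer ones 443 of 5375 rose and 505 fell (median -0.01). In 10 bins by mean over the 17 libraries, the lowest bin had 104 of 558 risen (median 0.30) and the highest 6 (median -0.22, 139 lower). These splits were chosen after values were seen.

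Of the 10 largest rises among coding ORFs, 5 are of under 300 bp: YKL183C-A, YGR146C-A, YHR022C-A, YGR121W-A and YLR285C-A. YKL183C-A had 86.4 and 105.3 in rrp6Δ, against 1.39, 1.71, 4.88 and 4.57 in wild type (30.6-fold, log2 4.66 ± 0.62, adjusted p = 9.35e-05), a fold that is imprecise with so few wild-type reads. YGR121W-A had 149 and 178 in rrp6Δ, against 23.7, 25.6, 30.1 and 21.9 in wild type (log2 2.65 ± 0.26, adjusted p = 8.8e-06). YLR285C-A starts 109 bp past the end of CTS1 on the same strand and rose by 2.64. MIP6, which codes for an RNA-binding protein, had 1694 and 1744 in rrp6Δ, against 148, 208, 267 and 322 in wild type (7.28-fold, log2 2.92 ± 0.24, adjusted p = 2.16e-06).

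DSE2, CTS1 and EGT2, also among the 10, belong to cell separation after mitosis. DSE2, a wall glucanase of daughter cells, had 1390 and 908 in rrp6Δ, against 69.7, 234, 69.1 and 64.9 in wild type (10.5-fold, log2 3.59 ± 0.41, adjusted p = 4.51e-05). CTS1, the chitinase that parts mother and daughter, had 8838 and 7451 in rrp6Δ, against 1000, 2178, 1081 and 907 in wild type (6.31-fold, log2 2.75 ± 0.34, adjusted p = 9.6e-05). EGT2, of the same process, had 491 and 453 in rrp6Δ, against 50.2, 76.7, 56.1 and 69.5 in wild type (7.47-fold, log2 2.90 ± 0.16, adjusted p = 1.22e-07). All 3 are clear of the wild-type libraries, although wild type 2 was high for DSE2 and CTS1. They did not set rrp6Δ apart from the other mutants: CTS1 differed from rad50Δ by 0.25 log2 (adjusted p = 0.657) and from xrn1Δ by 0.16 (adjusted p = 0.746), DSE2 by 0.27 and -0.20 (adjusted p = 0.698 and 0.736), and EGT2 was 1.52 lower in rrp6Δ than in rad50Δ (adjusted p = 0.00011) and 2.54 lower than in xrn1Δ (adjusted p = 3.15e-07).

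**Figure D4:**
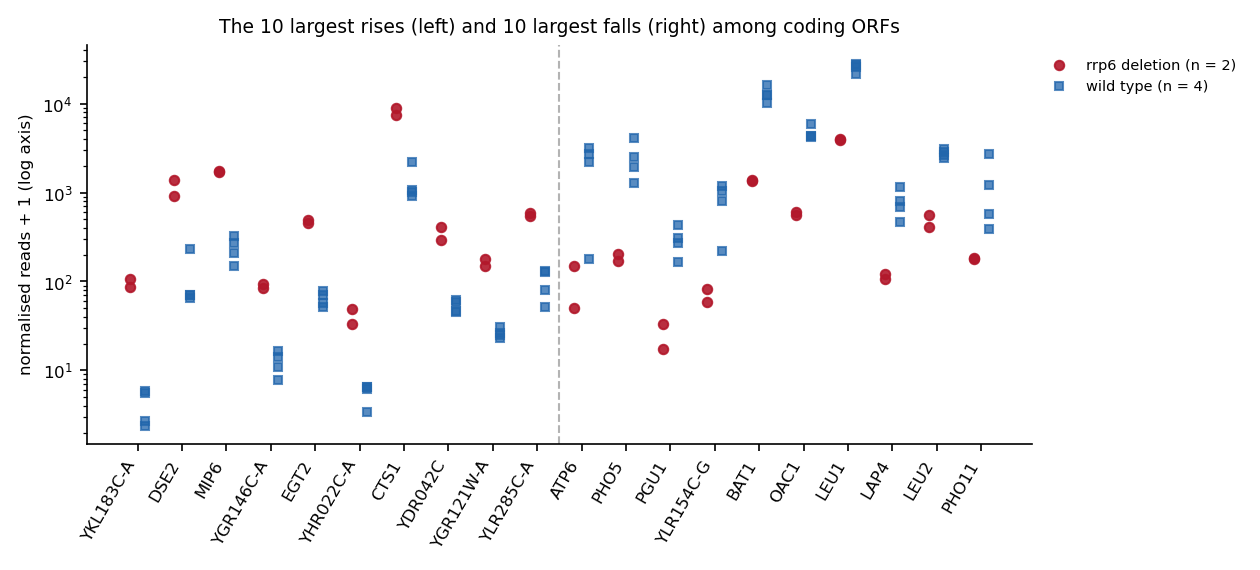
Normalised reads plus 1 (log axis) of the 10 largest rises, left of the dashed line, and the 10 largest falls among coding ORFs, with red circles for the 2 rrp6 deletion libraries on the left of each column and blue squares for the 4 wild-type libraries. For BAT1 the circles stand at 1353 and 1384 and the squares at 10147 to 16029; for ATP6 the wild-type 4 square, at 177, lies close to the higher circle, at 148.

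As a list, genes of G2/M and M/G1 had 16 of 32 higher and none lower, against 8.64% and 9.19% of all coding ORFs, with a median of 0.69 (0.36 with edgeR and 0.39 with DESeq2). By edgeR and DESeq2 14 were higher and none lower, and with limma none was lower at an unadjusted p under 0.05. SWI5, a transcription factor of the M/G1 program, had 179 and 237 in rrp6Δ, against 25.1, 40.9, 55.3 and 43.0 in wild type (5.07-fold, log2 2.35 ± 0.28, adjusted p = 3.87e-05). DSE4 and DSE1, of daughter separation, rose by 2.48 and 2.41, and CLB2, the mitotic cyclin, by 1.21 (adjusted p = 0.00192). With rrp6Δ library 1 or 2 left out, 9 or 10 of the 32 passed the threshold. Set directly against the other mutants, the list was lower in rrp6Δ: 20 of 32 were lower than in xrn1Δ (median -1.13) and 11 lower than in rad50Δ (median -0.54). Among all coding ORFs 27.8% were lower than in xrn1Δ and 13.3% lower than in rad50Δ. By library, the mean of the list stood 1.01 and 0.97 above the wild-type mean in rrp6Δ, against -0.22, 0.10, 0.18 and -0.05 in the wild-type libraries. Neither the 42 G1/S genes nor the 27 pheromone genes had a call in limma, with 1 of each higher at an unadjusted p under 0.05 and medians of -0.24 and 0.46. EdgeR called none of either list, and DESeq2 called 1 G1/S gene lower. CLN2, the G1 cyclin, had 473 and 492 in rrp6Δ, against 1423, 324, 366 and 327 in wild type, and FUS1, of cell fusion, 9610 and 9134, against 2040, 8222, 6900 and 8383: in both genes wild type 1 is the library apart. Whether the state of the arrest had a part in the G2/M and M/G1 counts was not tested.

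Markers of both mating types were checked in these a cells. STE2, the α-factor receptor of a cells, had 34973 and 33383 in rrp6Δ, against 26091, 31969, 26444 and 30649 in wild type (log2 0.25, adjusted p = 0.43). Of 7 a-cell markers 2 rose: MFA2, an a-factor gene, with 4199 and 2642 in rrp6Δ, against 1077, 2060, 1957 and 1594 in wild type (log2 1.04 ± 0.24, adjusted p = 0.00538), and AGA2, an agglutinin subunit, by 1.01 (adjusted p = 0.0162). MFA2 lost its call without rrp6Δ library 1 (adjusted p = 0.12) and AGA2 without either (adjusted p = 0.0798 and 0.113). Of 6 α-cell markers 4 passed the filter and 2 rose. SAG1, α-agglutinin, had 792 and 819 in rrp6Δ, against 259, 310, 384 and 343 in wild type (log2 1.33 ± 0.21, adjusted p = 0.000381), and STE3, the a-factor receptor, had 39.8 and 35.1, against 13.9, 11.9, 22.0 and 12.8 (log2 1.29 ± 0.43, adjusted p = 0.0412), a call lost without either rrp6Δ library (adjusted p = 0.215 and 0.14) and without wild type 1, 2 or 4 (adjusted p = 0.068, 0.0813 and 0.0735).

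Genes of leucine and branched-chain amino acid synthesis fell strongly. BAT1, the mitochondrial branched-chain aminotransferase, had 1353 and 1384 in rrp6Δ, against 16029, 12525, 12504 and 10147 in wild type, which is 9.36-fold lower (log2 -3.21 ± 0.14, adjusted p = 1.6e-08). OAC1, a mitochondrial carrier that exports a leucine precursor, had 599 and 563 in rrp6Δ, against 5897, 4289, 4240 and 4366 in wild type (log2 -3.00 ± 0.13, adjusted p = 1.65e-08). LEU1, isopropylmalate isomerase, had 3975 and 3932 in rrp6Δ, against 28199, 21745, 25794 and 27456 in wild type (log2 -2.70 ± 0.15, adjusted p = 8.67e-08). In each gene the lowest wild-type library exceeds the higher mutant library several times over. LEU2, a mutant allele in both strains, had 411 and 553 in rrp6Δ, against 2856, 2471, 3101 and 2669 in wild type (log2 -2.53 ± 0.15, adjusted p = 1.44e-07).

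Of 13 genes in a list of this pathway written after their values were seen, 9 fell and none rose in limma, with a median of -0.63. Beside this list and the Gcn4 list below, 9.19% of all coding ORFs fell and 8.64% rose. In the 13 genes limma gave 1 higher at an unadjusted p under 0.05, and edgeR and DESeq2 called 10 lower and none higher. ILV3 fell by 1.22 on the log2 scale and ILV2 by 0.80, both enzymes shared with isoleucine and valine. BAT1 was 3.83 log2 lower than in rad50Δ (adjusted p = 1.29e-08), and 0.95 lower than in xrn1Δ (adjusted p = 0.000249), whose list median against the same wild-type libraries was -1.45, with 0.31 for rad50Δ. Of 36 tested targets of Gcn4, the activator of amino acid genes, 13 fell and 1 rose (median -0.31), 8 and 7 falling without rrp6Δ library 1 or 2, and some of them are the branched-chain genes above. ARG1, for arginine synthesis, had 4836 and 4266 in rrp6Δ, against 23745, 15246, 8446 and 10364 in wild type (log2 -1.55 ± 0.31, adjusted p = 0.00269).

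Phosphatase genes fell too. PHO5, the repressible acid phosphatase, had 200 and 169 in rrp6Δ, against 4154, 2507, 1290 and 1915 in wild type, which is 13.3-fold lower (log2 -3.60 ± 0.34, adjusted p = 1.06e-05). The near-identical PHO11 and PHO12, which can share reads, fell by 2.36 and 2.10 on the log2 scale (adjusted p = 0.0164 and 0.015) and lost their calls without rrp6Δ library 1 (adjusted p = 0.1 and 0.077) or 2 (adjusted p = 0.1 and 0.112). For PHO11 the fall was 3.34 log2 against wild type 1 and 2 and 1.38 against wild type 3 and 4. Of 19 phosphate genes 6 fell and none rose in limma, beside 9.19% and 8.64% of all coding ORFs. At an unadjusted p under 0.05 limma gave 1 phosphate gene higher, and the list median was -0.37. Under TMM scaling 10 were lower, and edgeR and DESeq2 each called 11 lower and none higher. In limma 2 fell without either rrp6Δ library and 10 without wild type 3. PHO8, the vacuolar phosphatase, fell by 0.80.

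Other large falls were PGU1, a pectinase, with 32.0 and 16.2 in rrp6Δ, against 307, 431, 270 and 164 in wild type (log2 -3.54 ± 0.44, adjusted p = 7.51e-05), and LAP4, the vacuolar aminopeptidase I, with 105.4 and 121, against 464, 1148, 795 and 695 (log2 -2.69 ± 0.31, adjusted p = 4.36e-05). ATP6, of the mitochondrial genome, had 49.3 and 148 in rrp6Δ, against 2210, 2696, 3146 and 177 in wild type (log2 -3.97 ± 0.94, adjusted p = 0.00812). Wild type 4 stood near the mutant, the call was lost without rrp6Δ library 1 (adjusted p = 0.116), and without wild type 4 the fall was 4.94. Of 7 mitochondrially encoded genes tested 3 fell, beside 9.19% of all coding ORFs. The mean of the list stood at -1.13 and -0.78 in rrp6Δ, against 0.12, 0.02, 0.50 and -0.64 in wild type. Without rrp6Δ library 1 the other 2 calls were lost as well, COB (adjusted p = 0.0858) and COX2 (adjusted p = 0.107). COX2 was also lost without rrp6Δ library 2 (adjusted p = 0.257) and without wild type 1, 2 or 3 (adjusted p = 0.0916, 0.0945 and 0.0697). YLR154C-G, inside the rDNA, fell by 3.31 and lost its call without rrp6Δ library 1 or 2 (adjusted p = 0.05003 and 0.0854).

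Glycolysis and fermentation genes were lower in 13 of 19 cases and higher in none (1 higher at an unadjusted p under 0.05 in limma, none by edgeR or DESeq2), with a median of -0.54. TDH2, glyceraldehyde-3-phosphate dehydrogenase, had 36746 and 57569 in rrp6Δ, against 128446, 103247, 99380 and 97185 in wild type (log2 -1.21 ± 0.20, adjusted p = 0.000433). PDC5, pyruvate decarboxylase, had 707 and 600 in rrp6Δ, against 2199, 1189, 1639 and 1459 in wild type (log2 -1.28 ± 0.24, adjusted p = 0.00147). Without rrp6Δ library 1 or 2 the list count was 5 or 8. Ribosomal protein genes gave 20 lower (14.5%) and 2 higher of 138 with a median of -0.13, which was -0.26 under TMM scaling with 42 lower. Without rrp6Δ library 1 or 2, 5 and 10 were lower. Beside these lists, 9.19% of all coding ORFs were lower. In the highest of the 10 bins by mean level 24.9% were lower, with a median of -0.22, a larger share than among ribosomal protein genes. RPL8A had 7444 and 8913 in rrp6Δ, against 22678, 16871, 16921 and 18542 in wild type (log2 -1.19 ± 0.15, adjusted p = 7.5e-05), and RPL18B went the other way with 12495 and 13032 in rrp6Δ, against 9946, 6575, 5532 and 5957 in wild type (log2 0.91 ± 0.19, adjusted p = 0.00294). Of 69 ribosome biogenesis genes 1 rose (RRN3) and 1 fell (NOG2, whose row holds snR191 in its intron), with a median of -0.08; 4 were lower under TMM scaling (median -0.21), 6 with edgeR and 9 with DESeq2. Without rrp6Δ library 1 or 2 RRN3 missed the threshold (adjusted p = 0.105 and 0.0563), as did NOG2 (adjusted p = 0.0832 and 0.0531).

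**Figure D5:**
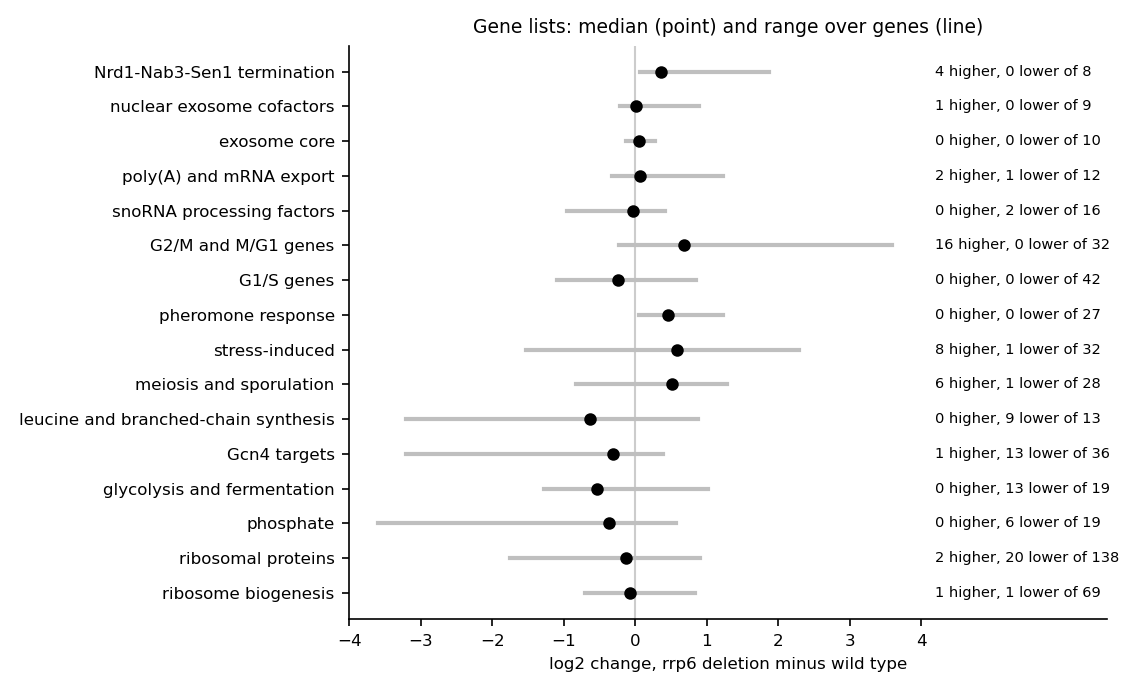
Each line runs over the log2 changes, rrp6 deletion minus wild type, of the tested genes of a list, the point is their median, and the counts at the right are genes past the threshold. The G2/M and M/G1 list stands at a median of 0.69 with 16 higher of 32, and the leucine and branched-chain list at -0.63 with 9 lower of 13.

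Stress genes were partly higher. Of 32 listed 8 rose and 1 fell, with a median of 0.58 (0.22 with edgeR and 0.24 with DESeq2), but none rose without rrp6Δ library 1 and 3 without library 2. By library the list mean stood at 0.56 and 0.45 in rrp6Δ, against -0.80, 0.26, 0.48 and 0.06 in wild type, so the groups overlap and wild type 1 is lowest. ALD3, an aldehyde dehydrogenase of stressed cells, had 684 and 535 in rrp6Δ, against 46.0, 104, 208 and 229 in wild type (log2 2.29 ± 0.50, adjusted p = 0.00491; 0.0581 without rrp6Δ library 1). TSL1, of trehalose synthesis, had 1859 and 1454 in rrp6Δ, against 325, 740, 799 and 612 in wild type (log2 1.49 ± 0.32, adjusted p = 0.0043; 0.0626 without library 1). Wild type 1 is lowest in both genes. Meiosis genes, 6 higher and 1 lower of 28 tested (median 0.52), had 1 higher without either rrp6Δ library; NDT80, the meiotic transcription factor, had 207 and 234 in rrp6Δ, against 62.7, 80.1, 120 and 110 in wild type (log2 1.28 ± 0.28, adjusted p = 0.00417; 0.0535 without library 2). Beside 8.64% higher and 9.19% lower among all coding ORFs, counts of the remaining lists were 4 higher and 6 lower of 26 nucleotide synthesis genes, 2 and 2 of 21 iron and copper genes, 4 and 1 of 20 vitamin B6 and thiamine genes, 1 and 2 of 24 DNA damage genes, 1 higher of 10 galactose genes (GAL4) and 1 lower of 12 zinc genes (ZRT1). The 11 histone genes and 20 cell wall integrity genes had no call in limma; at an unadjusted p under 0.05 limma gave 1 lower, a cell wall gene, and edgeR and DESeq2 each called 2 cell wall genes lower and no histone gene.

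Antisense noncoding RNA was set beside each ORF. Of 5580 tested ORFs 874 (15.7%) are overlapped on the other strand, over at least 100 bp, by a CUT, XUT or SUT row that rose. Among these 85 (9.73%) rose and 101 (11.6%) fell, with a median of 0.00, against 8.64% and 9.19% of all ORFs. The 4369 ORFs with no antisense row had 359 risen, 386 fallen and a median of -0.01. Where the antisense row rose by over 2 log2, 40 of 474 ORFs rose and 61 (12.9%) fell, with a median of -0.05. Counted from the other side, 101 of the 513 ORFs that fell (19.7%) and 19 of the 75 that fell by over 1 log2 (25.3%) have a risen antisense row, as do 85 of the 482 that rose (17.6%). These counts were made after values were seen and have no test; they show small differences in share around a common median near 0.

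Single pairs were picked from that set after their values were seen. SAM35, a mitochondrial sorting subunit, had 264 and 283 in rrp6Δ, against 1069, 859, 765 and 759 in wild type (log2 -1.64 ± 0.16, adjusted p = 7.55e-06), and lies opposite CUT646 and XUT1299, described above. PHO5 lies opposite CUT025, with 1403 and 1561 in rrp6Δ, against 357, 271, 285 and 384 in wild type (log2 2.20 ± 0.22, adjusted p = 1.15e-05). Between rrp6Δ and xrn1Δ the CUT025 difference was -0.02 log2 (adjusted p = 0.961), while PHO5 was 3.11 log2 lower in rrp6Δ than in xrn1Δ (adjusted p = 3.34e-05). LAP4 lies opposite CUT229, with 2145 and 2429 in rrp6Δ, against 683, 829, 743 and 767 in wild type (log2 1.60 ± 0.18, adjusted p = 2.37e-05). GYP5, a GTPase-activating protein gene that fell by 1.61 on the log2 scale, lies opposite CUT402, which rose 10.1-fold, and ZRT1, the zinc transporter gene, which fell by 1.34, lies opposite CUT583, which rose by 3.32. In each of these ORFs and CUTs the 2 groups do not overlap.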

How the data were processed

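Total RNA of 17 yeast libraries was used; the other 12 samples were not analysed here. The authors deposited 1 table whose values are a signal, reads per row divided by 1 size factor per library. The submitters' processing notes name STAR 2.5.3, SAMtools 0.1.19, DESeq2 and build R64; the counting program and the treatment of reads that map to several places are not given in the sources used here. Another 33 columns of densities and group means were not used. In all 17 libraries 100% of values lay within 0.02 of a whole multiple of that library's smallest value; the tests on recovered reads used 16 libraries, leaving out ku70Δ, whose step is close to 1.

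The main test was limma 3.58.1 in R 4.3.3 on log2(value + 1), with trend and robust moderation, over 8 groups and 17 libraries (9 residual degrees of freedom), for rows with a mean of at least 10, with Benjamini-Hochberg adjustment over 16559 rows and a threshold of 0.05. Alternatives were edgeR 4.0.16 and DESeq2 1.42.0 on recovered reads, other scalings, pseudocounts, filters and designs, and each library left out. On simulated data 77% of 100 rows changed by 1 log2 and 100% of 100 rows changed by 2 log2 were recovered, with 4 false calls among 16559 rows. The simulation gave every row the same dispersion and, apart from the changed rows, every group the same mean. Changed rows were drawn above a minimum wild-type level. These rates therefore need not hold for the real libraries. Depth limits precision for rows with few reads. The members, gene lists and comparisons were chosen with earlier results of these data known; the leucine list, distances, length and level splits and snoRNA types were chosen after the values. Named rows are, per class, the largest rises and falls (10 each for coding rows, 4 each for other classes) past the threshold with no overlap between libraries, up to 3 list members per direction by adjusted p, all members of the exosome and termination lists, and rows named as neighbours, pairs or cell-cycle markers, which were picked after their values were seen. Of 145 named calls, 132 were still tested, and all held, when the filter used the 15 libraries other than rrp6Δ. The remaining named calls passed the filter only with the rrp6Δ libraries, so a high value there was a condition of their being tested.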

Additional observations from a re-analysis of the deposited data

Results flagged for a closer look

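In 14 of the 164 named rows 1 wild-type library stood apart from the other 3 by Dixon's criterion, which chance alone meets in about 1 in 20 groups. Wild type 1 was the library in 6 rows, wild type 2 in 2, wild type 3 in 3 and wild type 4 in 3. Wild type 1 was high for OAC1 (5897, others 4240 to 4366), URA2 (51768, others 39821 to 41186), ILV3 (28477, others 21459 to 22232) and CLN2 (1423, others 324 to 366), and low for IMD2 (6983, others 8231 to 8465) and SCW11 (339, others 1335 to 1511). Wild type 2 was high for DSE2 (234, others 64.9 to 69.7) and CTS1 (2178, others 907 to 1081). Wild type 3 was low for YHR022C-A (2.44, others 5.12 to 5.57), CUT841 (15.5, others 29.0 to 30.7) and CUT180 (15.5, others 27.3 to 29.2). Wild type 4 was high for XUT1299 (77.7, others 41.8 to 47.7), divergent_4486 (3.66, others 1.39 to 1.71) and SUF2 (51.2, others 25.6 to 27.9).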

How the results depend on the processing

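Coding rows higher numbered 482, and 280 with TMM, 279 with edgeR, 253 with only the 2 groups, 136 with a minimum change and 740 with wild type 1 and 2 alone; coding rows lower were 513 in the main test and 981, 1136, 1231 (DESeq2), 242 and 75 (minimum change). All rows lower were 1151, against 2181 with TMM, 2539 with edgeR, 2738 with DESeq2, 550 with 2 groups and 203 with a minimum change. A mean of at least 50 left 138 CUTs, 373 XUTs, 281 SUTs, 98 divergent, 33 dubious and 8 tRNA rows higher, and 1798 rows in all; no filter gave 874 divergent, 179 dubious and 78 tRNA rows. With wild type 3 and 4 alone 25 tRNA rows rose. SnoRNA rows lower were 12, and 20 with DESeq2 and 22 with wild type 1 and 2. Against xrn1Δ a mean of at least 50 gave 141 CUTs, 182 XUTs and 123 SUTs higher and 171 XUTs lower, and the filter over the 15 other libraries, added after seeing the data like the wild-type pairs, gave 411 CUTs; against rad50Δ a mean of at least 50 gave 129 CUTs.

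The replicate number as a block gave 780 coding rows higher, 790 lower, 1767 rows lower in all, and 22 snoRNA rows lower; ADE12 reversed to -0.28 (0.06 in the main test). Same-numbered libraries did not deviate together (r = -0.02 and -0.13 over 16559 rows), so the pairing is only a shared number.

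With 1 library left out, the counts ran as follows, the lone rrp6Δ library being assumed to vary like the other groups: coding higher 176 to 580 and lower 172 to 570; all rows 2081 to 3779 and 379 to 1275; CUT 542 to 647, XUT 575 to 879, SUT 268 to 436, divergent 201 to 459, dubious 53 to 105, tRNA 10 to 44; snoRNA 18 to 27 higher and 9 to 16 lower. Against xrn1Δ the ranges were 547 to 624 for CUTs, 384 to 518 and 206 to 286 for XUTs higher and lower, and 158 to 223 and 142 to 196 for SUTs; against rad50Δ 415 to 593 for CUTs and 14 to 23 for snoRNAs. Of 145 named calls, 108 held without rrp6Δ library 1 and 116 without library 2.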
